A study of Mus musculus with 16 samples.

Results

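The LINE1 copies described here are those with the highest CpG methylation in wild-type J1 mouse embryonic stem cells: 91 of the 753 copies covered in every library, holding 1107 of 10185 tested CpG sites. A copy is a run of tested sites on 1 strand of a chromosome with gaps of at most 200 bp. The set was chosen by its wild-type level: a copy entered when its summed methylated calls reached 33% of its summed calls in wild-type replicates 1 and 2 together. All wild-type values below come from replicates 3 and 4, which had no part in the choice.

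The study amplified LINE1 sequence from bisulfite-treated genomic DNA of embryonic stem cells of the J1 line (129S4/SvJae background), grown in medium with serum, LIF and the inhibitor pair known as 2i, which keeps the cells undifferentiated. There were 4 genotypes with 4 libraries each: wild type (wtJ1), a Uhrf1 knockout (Uhrf1 KO), and lines whose Uhrf1 carries the change H730A or the change F46A. Whether each line goes back to a single clone, and whether its libraries are separate cultures, the sources used here do not state. A p-value between genotypes therefore measures at most the spread between libraries, which may be technical. Chi-square tests between single libraries and Fisher's exact test on summed calls measure the sampling of calls alone. A methylation level is the share of calls at a CpG that read as unconverted cytosine, which is taken as methylated. Only CpG calls were available, so how complete the conversion was could not be checked.

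LINE1 elements are retrotransposons present in many near-identical copies, and their promoter regions are held silent in part by CpG methylation. UHRF1 binds hemimethylated DNA after replication and helps recruit and activate the maintenance methyltransferase DNMT1. Its RING domain ligates ubiquitin to histone H3 and to other proteins, and its ubiquitin-like (UBL) domain is needed for that activity. H730A lies in the RING domain and F46A in the UBL domain.

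Each library held between 998982 and 1287040 calls over all its sites, of which 44682 to 57123 fell on the highly methylated copies. The median site of these copies had 39 to 50 calls per library, against 60 to 76 at the other tested sites, so single sites are less precise here than elsewhere. PCR reads without molecular identifiers are not independent molecules, and reads of near-identical copies can be assigned to the wrong one; neither was measured. Chi-square tests between libraries of a genotype were run over all tested copies, not on the set alone. Between the choosing wild-type replicates these chi-square tests gave p = 0.637 for coverage of the copies and p = 0.317 for calls at amplicon positions. Between replicates 3 and 4 the chi-square tests gave p = 0.640 and p = 0.0144. In chi-square tests by position each choosing wild-type library differed from each of replicates 3 and 4 (p = 7.29e-29 to 2.78e-08), and so did every pair of H730A libraries and of F46A libraries, with p no higher than 6.54e-12. In chi-square tests coverage also differed in every pair of F46A libraries (p = 5.71e-10 to 0.0279). In chi-square tests by position Uhrf1 KO replicates 1, 2 and 4 stayed within sampling noise of each other (p = 0.417, 0.844 and 0.727). In a chi-square test of coverage replicates 2 and 4 differed (p = 0.00653). All 4 were kept as samples; counted as 1 sample, those 3 gave a mean level over the highly methylated copies, with replicate 3, of 6.35%.

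The level that chose the copies ranged from 33.03% to 58.3% with a median of 36.1%. In replicates 3 and 4 the same copies ranged from 23.2% to 60.6% with a median of 36.02%. There 67 of the 91 were still at or above 33% and 24 were below it, and 23 copies outside the set reached it. Just inside the limit were chr10:38772860-38773002 and chr14:114903233-114903375, at 33.03% and 33.1%. Just outside it were chr5:29356393-29356535, at 32.9%, and chr17:63671675-63671817, which lay just under 33%. In wild-type replicates 3 and 4 these 4 copies had 31.7%, 35.6%, 34.8% and 33.3%, so the limit cuts through a continuous range.

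In number of sites, span and share on the X chromosome the set resembled the other copies. Its copies lay on 18 chromosomes (mm10), 49 on the plus and 42 on the minus strand, with a median of 12 sites over 143 bp, the same medians as the other 662. On the X chromosome lay 12 of them (13.2%, against 13.1% of the other copies). Inside the span of a RefSeq protein-coding or long noncoding gene lay 18 (19.8%, against 29.6%), 14 of them in 13 protein-coding genes; the gene table used gives spans, not exons. Nearly all held 1 unit of the amplicon's CpG pattern. The 3 exceptions were chr15:66057810-66058164 and chr17:20639115-20639469 with 2 units each and chr3:8451629-8451770, whose 9 sites were not placed on the pattern. Their spacing followed the pattern in stretches, but no single placement matched the minimum of 6 sites. Copies with 2 or more units made up 2.20% of the set and 11.6% of the other copies.

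Some highly methylated copies lay close to one another. Of the 91, 17 (18.7%) lay within 5000 bp of another member, against 21 of the 662 other copies (3.17%). Any tested copy lay that near to 37.4% of the set and 26.7% of the other copies. They formed 7 groups, 3 of 3 copies and 4 of 2, each on 1 strand. The chromosome 2 group spans chr2:23938188-23940220, with copies starting 945 bp apart. In the groups at chr6:18586315-18587305, chr9:80956136-80957126, chr9:8467076-8467642 and chr12:62548542-62549108 the copies started 424 bp apart, with 1 step of 461 bp in the second of these. How far neighbouring copies share sequence or misassigned reads was not measured, and they are not independent examples. The 17 clustered copies averaged 40.6% in wild type, and the 74 others of the set 36.3%.

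Methylation of these copies was far lower in the Uhrf1 KO line than in wild type, and in both point-mutant lines too. Whether the lines differ in more than Uhrf1 was not tested. Pooled over the set, the 2 wild-type libraries stood at 36.9% and 36.8% (mean 36.9% ± 0.0522 SD, n = 2). The Uhrf1 KO libraries stood at 6.06%, 6.24%, 6.53% and 6.20% (mean 6.26% ± 0.198 SD, n = 4). The H730A libraries stood at 12.5%, 12.7%, 14.2% and 10.9% (mean 12.6% ± 1.35 SD, n = 4), so the RING mutant kept the most. The F46A libraries stood at 7.73%, 7.59%, 5.83% and 8.52% (mean 7.42% ± 1.13 SD, n = 4). No mutant library came near wild type, and all 4 H730A libraries were above all Uhrf1 KO and all F46A libraries.

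**Figure D1:**
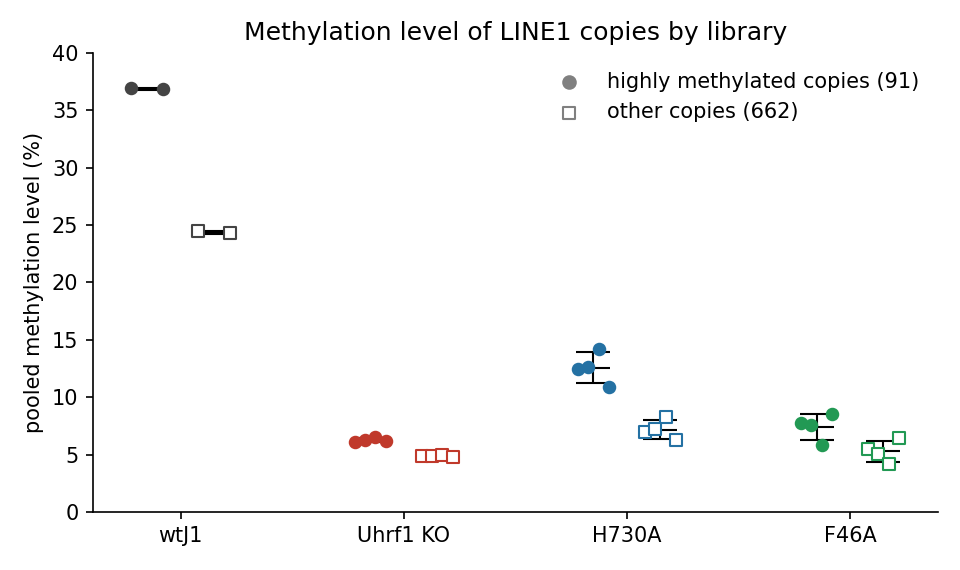
Pooled methylation level in percent (vertical axis) of each library for the 4 genotypes; filled circles are the 91 highly methylated copies, open squares the 662 other copies, and bars the mean ± SD over libraries (n = 2 for wtJ1, 4 for each mutant). H730A replicate 3 is the highest and replicate 4 the lowest of its genotype in both sets, and the 4 filled H730A points lie above every filled Uhrf1 KO and F46A point.

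Every copy of the set fell in every mutant. In the quasi-binomial test with Benjamini-Hochberg adjustment over all 753 copies, 91 of 91 were lower than wild type in each mutant, as were 100% (Uhrf1 KO), 99.9% (H730A) and 100% (F46A) of all tested copies, so this is no feature of the set. Among single sites, 1055 of 1107 fell in Uhrf1 KO (89.4% of all tested sites), 976 in H730A (83.9%) and 1047 in F46A (89.5%). The number of sites at 50% or more was 131 in wild type, 3 in the knockout and 2 in either point mutant. Among the 9078 other sites it was 41 in wild type and 0 in each mutant. Sites under 10% numbered 844 in Uhrf1 KO (76.2% of the set's sites, against 87.6% of the other sites) and 815 in F46A (73.6%, against 92.1%). In H730A they numbered 438 (39.6%, against 80.0%). These comparisons rest on 2 wild-type libraries, and an exact permutation test of 2 libraries against 4 cannot reach 0.05.

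The share of the wild-type level that remained differed between the mutants, and so did its relation to the share kept by the other copies. Uhrf1 KO kept 16.98% ± 0.537 (SD, n = 4) of the wild-type level in the highly methylated copies and 20.0% in the other copies. F46A kept 20.1% ± 3.08 here and 21.7% elsewhere. H730A kept 34.1% ± 3.66 here and 29.5% elsewhere. Within each library, the highly methylated copies kept a smaller share than the other copies in 4 of 4 Uhrf1 KO libraries (by 3.04 percentage points on average) and in 4 of 4 F46A libraries (by 1.57 points on average). The F46A differences ran from -3.23 to -0.0638 points, so in 1 library there was next to none. They kept a larger share in 4 of 4 H730A libraries, by 3.89 to 5.38 points. With the other copies weighted to the same mix of amplicon positions, the shares here and elsewhere were 16.9% and 19.6% (knockout), 33.9% and 29.4% (RING mutant) and 20.1% and 21.4% (UBL mutant). These are descriptions without a test, since the set was chosen with earlier results known.

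**Figure D2:**
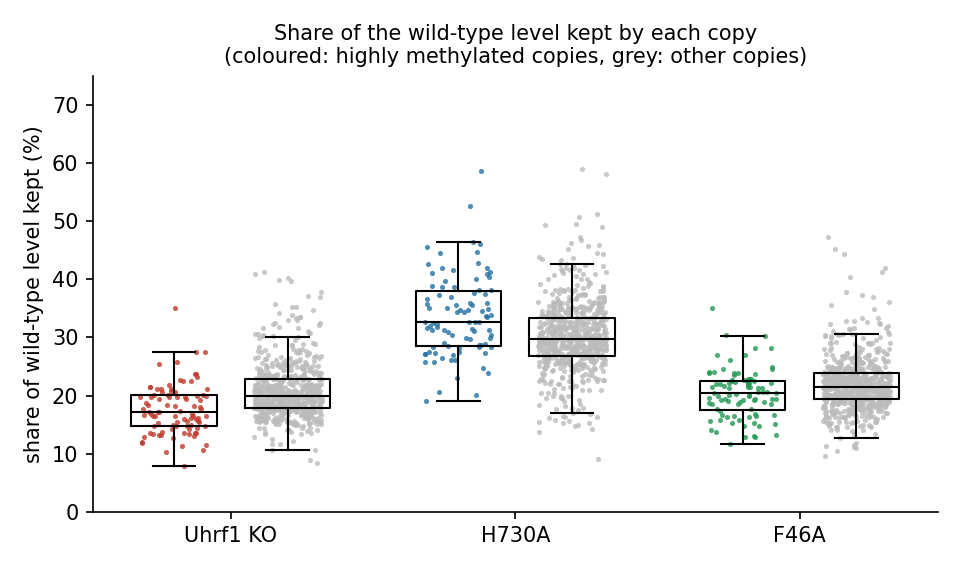
Share of the wild-type level kept (vertical axis, percent) by each copy in each mutant; coloured points are the 91 highly methylated copies, grey points the 662 other copies, boxes the quartiles, and whiskers reach the furthest copy within 1.5 times the box height. The coloured medians are 17.1% (Uhrf1 KO), 32.6% (H730A) and 20.5% (F46A).

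Between mutants, the widest gap was that of H730A over Uhrf1 KO. It was 6.32 percentage points in the highly methylated copies, a 2.01-fold level, and 2.30 points, 1.47-fold, in the other copies. Of the 91 copies, 69 were higher in H730A (59.1% of all tested copies were) and none lower (0.398%). In 65 all H730A libraries were above all Uhrf1 KO libraries (51.8% of all tested copies) and in none below all (0.531%). In 90 the H730A mean was the higher (98.9%, against 93.4% of the other copies). Of the 1107 sites, 314 were higher in H730A (21.4% of all tested sites) and 2 lower (0.785%). The exception among the means was chrX:72573099-72573241, inside Gabra3, which encodes a subunit of the GABA-A receptor, with 7.94% ± 2.51 in Uhrf1 KO and 7.55% ± 2.27 in H730A (adjusted p = 0.836).

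F46A could not be separated from the knockout copy by copy. The pooled difference was 1.16 points (1.19-fold), and 0.408 points in the other copies; 3 of the 4 F46A libraries were above all Uhrf1 KO libraries and replicate 3 was below all of them. No copy passed the adjusted threshold in the quasi-binomial test or in limma on logit values, and 0% of all tested copies did; 13 of the 91 had an unadjusted p under 0.05, and Fisher's exact test on summed calls, which ignores the spread between libraries, called 22 (24.2%, against 14.2% of all tested copies). Without F46A replicate 3 the quasi-binomial test called 5 (5.49%, against 3.19% of all tested copies). No site passed either (0% of all tested sites), with 130 at an unadjusted p under 0.05. The F46A mean was the higher in 68 of 91 copies (74.7%, against 70.2% of the other copies). In 5 all F46A libraries were above all Uhrf1 KO libraries (2.52% of all tested copies) and in none below all (0.398%). Those 5, named after their values were seen, were chr6:18586315-18586457, chr17:39992734-39992876, chr11:16385831-16385973, chr11:13616426-13616568 and chr14:114903233-114903375, with gains of 1.15 to 4.19 points.

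F46A stood below H730A by 5.15 points in the highly methylated copies and by 1.89 in the others. Of the 91 copies, 37 were lower in F46A (27.4% of all tested copies) and none higher (0%). In 39 all F46A libraries were below all H730A libraries (26.4% of all tested copies). Of these 37, 36 were also among the 69 that were higher in H730A than in Uhrf1 KO, a count that the shared H730A libraries help to set; the other was chr2:138395259-138395401. The count fell to 24 without F46A replicate 1 or without replicate 3, where 13.1% and 11.3% of all tested copies were called. At single sites 49 were lower in F46A (2.39% of all tested sites) and none higher (0.00982%), but leaving out a library gave 0 to 19 such sites, 19 without F46A replicate 2 (1.35% of all tested sites) and 3 without F46A replicate 4 (0.353%). Without any 1 of the other 6 libraries the count was 0.

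**Figure D3:**
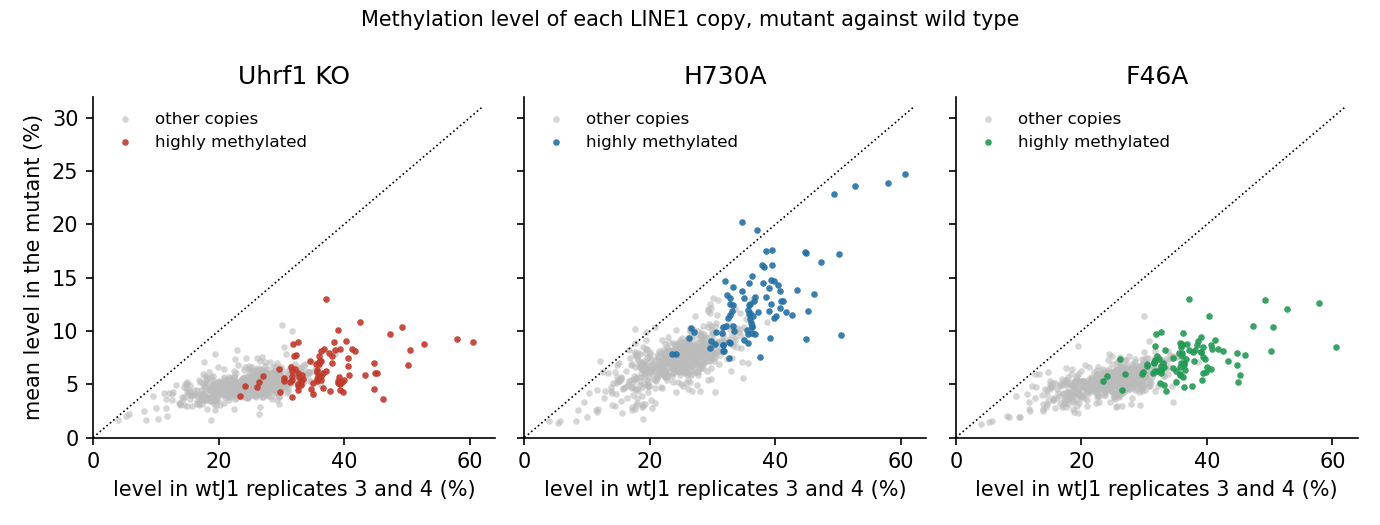
Mean level of each copy in a mutant (vertical axis, percent, n = 4) against its level in wtJ1 replicates 3 and 4 (horizontal axis, percent, n = 2), one panel per mutant; coloured points are the 91 highly methylated copies, grey points the other copies, and the dotted line marks mutant levels at 50% of wild type. In H730A 2 coloured points lie above that line and in Uhrf1 KO and F46A none does.

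Copies with more methylation in wild type tended to hold more in each mutant. Over the 91 copies Pearson's r of the wild-type level with the mutant level was 0.424 for Uhrf1 KO, 0.687 for H730A and 0.509 for F46A. These are descriptions across copies, which share libraries and in part sequence. The 10 copies at 45% or more in replicates 1 and 2 averaged 50.9% in replicates 3 and 4, and the knockout had 7.94% ± 0.843 there, H730A 18.01% ± 1.48 and F46A 9.79% ± 1.65 (SD, n = 4 each). The other 81 copies averaged 35.5%, 6.06% ± 0.176, 11.9% ± 1.46 and 7.14% ± 1.11. As shares of wild type the upper 10 kept 15.6%, 35.4% and 19.3% and the other 81 kept 17.1%, 33.5% and 20.1%, in the same order of mutants. The 12 X-linked copies, at 36.9% in wild type, kept 17.9%, 34.8% and 19.9%, and the 79 autosomal ones 16.9%, 34.04% and 20.1%.

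The copies fell into a shared amplicon pattern of 15 CpG positions, counted in bases along the copy's own strand from the first CpG of the pattern, position 1. The highly methylated copies had tested sites at 14 of them, all but position 1. There the other copies had 35 sites, at 0.189% in wild type. At position 18 the 91 highly methylated copies had 18 sites, and the 662 other copies had 288, at 16.8% in wild type. A copy's level is summed over its sites, so the positions it holds bear on its entry into the set. How far was not tested. In wild type the highly methylated copies were above the other copies at all 14 positions, which the choice by wild-type level favours. H730A was above Uhrf1 KO in all libraries at 12 of the 14, and at 9 in the other copies, where it was below Uhrf1 KO at 2, positions 53 and 90. At the 2 remaining positions of the highly methylated copies the values overlapped: position 90 had 14.6% ± 0.54 in Uhrf1 KO and 13.9% ± 1.4 in H730A, and position 110 had 9.18% ± 0.50 and 9.35% ± 2.3. F46A was above Uhrf1 KO in all libraries at 4 positions, 8, 34, 65 and 113, as it also was at 4 in the other copies. It was below H730A in all libraries at 11, and at 7 in the other copies.

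Position 113 showed the widest gap. Its 87 sites in the highly methylated copies averaged 44.4% in wild type; the knockout had 3.98% ± 0.39, H730A 21.3% ± 1.6 and F46A 9.84% ± 3.4 (SD, n = 4 each). H730A thus kept 47.9% of the wild-type level there and Uhrf1 KO 8.96%. At position 113, 72 of 87 sites (82.8%) were called higher in H730A than in Uhrf1 KO, against 75.6% of the sites there in the other copies. At position 8 it was 61 of 85 (71.8%, against 64.5%), at position 34 46 of 80 (57.5%, against 59.2%) and at position 65 45 of 92 (48.9%, against 37.4%), so the positions with many calls were those of the other copies too. At position 90 none of 90 was (0% in the other copies), and Uhrf1 KO kept 34.4% of wild type at position 90, its largest share. The 2 sites that fell in H730A relative to Uhrf1 KO, chr11:45726064 (by 7.94 points, adjusted p = 0.0321) and chr2:172008117 (by 7.69 points, adjusted p = 0.0438), were both at position 90. They were singled out after their values were seen. The first missed the threshold without Uhrf1 KO replicate 1, 2 or 4 or H730A replicate 1 or 4 (adjusted p = 0.0628 to 0.109), the second without any 1 library except H730A replicate 2 (adjusted p = 0.0556 to 0.137).

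**Figure D4:**
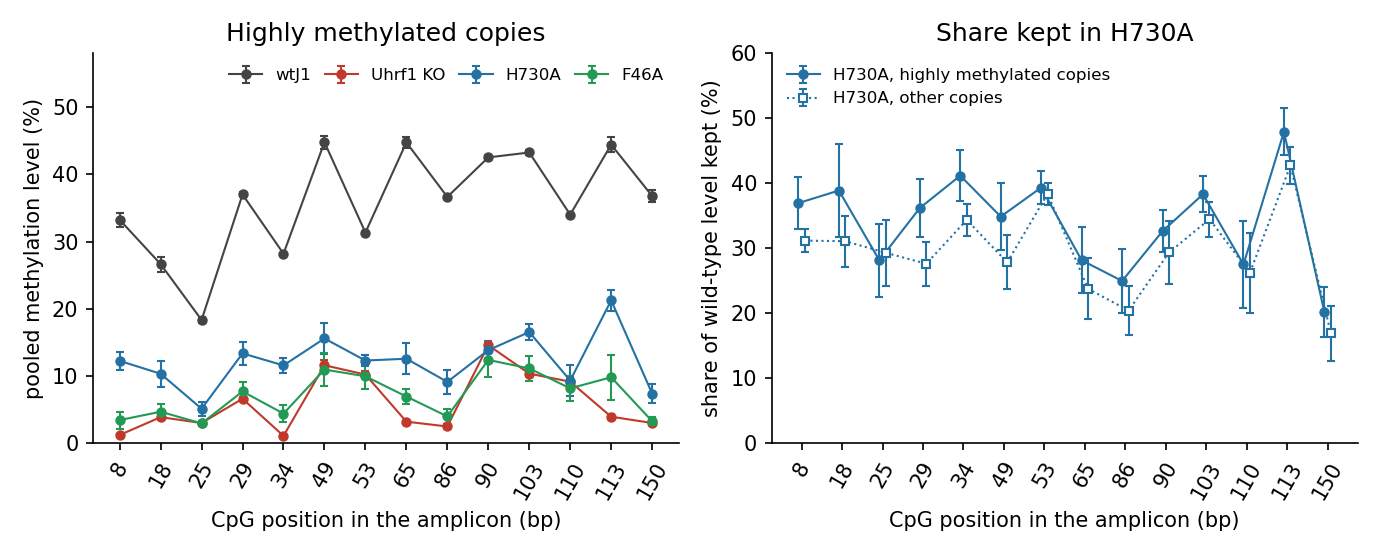
Left: pooled level (vertical axis, percent) of the highly methylated copies at the 14 amplicon positions (horizontal axis, bases, evenly spaced) by genotype, mean ± SD over libraries; right: share of the wild-type level kept in H730A at each position, filled circles for the highly methylated copies and open squares for the other copies. H730A and Uhrf1 KO meet at positions 90 and 110 and lie furthest apart at 113.

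The share kept in H730A was larger in the highly methylated than in the other copies at 13 of 14 positions, the exception being position 25. In Uhrf1 KO it was larger at 1 position and smaller at 13, and in F46A larger at 2 and smaller at 12. At position 49 H730A kept 34.9% here and 27.8% in the other copies, and at position 29 36.2% and 27.6%. 

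Among copies that passed the test, the 5 where H730A stood furthest above the knockout ranked 1, 2, 5, 12 and 48 by level in the choosing libraries. The copy that ranked first in the choosing libraries, chr2:23940078-23940220, had 59.5% and 56.4% in wild type. It had 8.51%, 12.6%, 8.25% and 7.72% in Uhrf1 KO, 24.8%, 27.2%, 20.4% and 23.0% in H730A, and 14.2%, 15.8%, 7.74% and 12.7% in F46A. H730A was above Uhrf1 KO by 14.9 points (adjusted p = 2.19e-06) and F46A below H730A by 11.2 points (adjusted p = 0.00262), each without overlap between libraries. Both neighbours on the same strand behaved alike: chr2:23939133-23939275 had 52.7% in wild type and 8.81%, 23.6% and 12.1% in Uhrf1 KO, H730A and F46A, and chr2:23938188-23938330 had 49.3%, 10.4%, 22.8% and 12.9%.

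The copy ranked second, chr1:150233137-150233279, had 60.4% and 60.8% in wild type and 11.2%, 7.46%, 11.7% and 5.39% in Uhrf1 KO. H730A had 29.3%, 20.8%, 24.1% and 24.9%, above every other mutant library, and F46A had 6.96%, 11.3%, 6.50% and 9.38%, within the range of the knockout. The gain of H730A over Uhrf1 KO, 15.7 points (adjusted p = 4.91e-06), and the drop of F46A against H730A, 16.3 points (adjusted p = 0.000108), were the widest among the copies of the set that passed the test. At chr3:91126964-91127106, which ranked 48 of 91 in wild type with 34.6%, H730A had 20.3% ± 3.83 against 7.15% ± 1.34 in Uhrf1 KO and 7.46% ± 1.38 in F46A. That was 58.5% of its wild-type level, the highest share in H730A. These 5 copies were the first 5 by size in both comparisons with H730A, and their calls held with any 1 library left out.

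**Figure D5:**
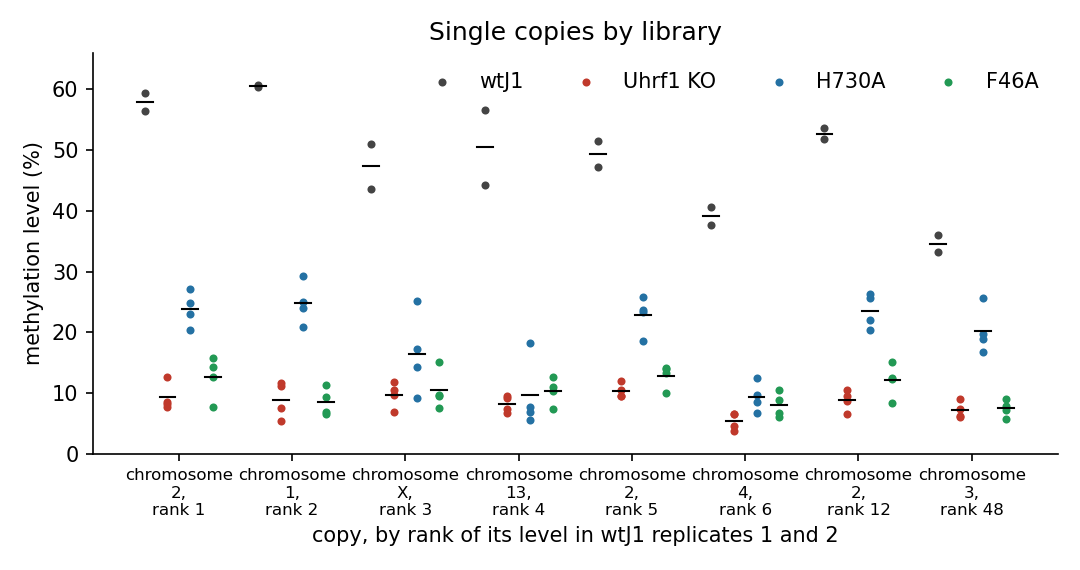
Level by library (vertical axis, percent) of 8 single copies (horizontal axis, chromosome and rank by level in wtJ1 replicates 1 and 2); dots are libraries coloured by genotype and short lines their means. The 3 chromosome 2 copies, the chromosome 1 copy and the chromosome 3 copy show H730A dots above all Uhrf1 KO and F46A dots, and the copies on chromosomes X, 13 and 4 do not.

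The copies of rank 3, 4 and 6 did not pass the test for H730A against Uhrf1 KO. At chr13:62420030-62420172, the copy of rank 4, wild type had 56.7% and 44.3% and H730A 5.59%, 6.94%, 18.2% and 7.78%, a mean of 9.64% and the lowest share of wild type in H730A, 19.1%. Uhrf1 KO had 8.18% ± 1.40 and F46A 10.3% ± 2.23 there, and no mutant pair differed past the threshold. One of its sites, chr13:62420087 at position 65, was at 2.75% in wild type while its other sites were at 41.3% to 70.6%. At chrX:88997821-88997963, the copy of rank 3 with 47.3% in wild type, H730A ranged from 9.13% to 25.1% and missed the threshold against Uhrf1 KO (6.05 points, adjusted p = 0.0560). Without H730A replicate 3 the adjusted p was 0.00411, and without replicate 4 it was 0.0487. At chr4:40597140-40597261, the copy of rank 6 with 39.1%, H730A had 9.35% ± 2.41 and Uhrf1 KO 5.32% ± 1.43 without overlap (adjusted p = 0.0944, and 0.0481 without H730A replicate 4).

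The shares kept by single copies ranged from 7.82% to 35.03% in Uhrf1 KO, from 19.1% to 58.5% in H730A and from 11.6% to 34.98% in F46A. The top of the Uhrf1 KO and F46A ranges was set by 1 copy, chr1:40195307-40195449. That copy holds a site outside the pattern, chr1:40195431, which was at 89.8% in wild type, 82.8% in the knockout, 100.0% in H730A and 81.0% in F46A on 13 to 26 calls per library. Without that site the copy kept 22.9%, 40.3% and 23.3% in Uhrf1 KO, H730A and F46A, in place of 35.03%, 52.6% and 34.98%. The same held for chr10:112587346-112587493, whose first site, also outside the pattern, was at 61.5%, 79.1%, 85.1% and 76.5% on 12 to 31 calls; without it the copy kept 14.9%, 17.9% and 13.6% in place of 25.8%, 30.4% and 24.1%. These were the 2 sites called higher in H730A than in wild type (0.0196% of all tested sites), with adjusted p = 0.0157 and 0.0185. Without wild-type replicate 3 these were 0.152 and 0.127, and without H730A replicate 4 the second was 0.0508. The only other site of the set at 50% or more in Uhrf1 KO was chr16:54432160, at position 29, with 52.1% on 10 to 36 calls. The 129S4/SvJae cells were aligned to mm10, the assembly of another strain; the part of sequence differences in these sites was not tested. These 3 sites were singled out after their values were seen.

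Next in the knockout came chr1:17389931-17390019 with 8.78% ± 2.79 (27.5% of wild type), chr9:80957021-80957126 with 9.0% ± 1.01 (27.5%), and chr16:54432076-54432181, among the highest in F46A with 11.4% ± 1.99 (28.2%). In H730A chr1:17389931-17390019 kept 45.997% and chr2:23938188-23938330 46.3%. The first was called higher in H730A than in Uhrf1 KO (adjusted p = 0.0224), a call lost without Uhrf1 KO replicate 3 (adjusted p = 0.12).

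At the other end, chr6:18586315-18586457 kept the least in the knockout, 7.82%: it had 46.1% in wild type, 4.51%, 2.81%, 3.60% and 3.51% in Uhrf1 KO, and 7.45%, 10.6%, 5.63% and 7.09% in F46A. All F46A libraries were above all knockout libraries there, with an adjusted p of 0.358, which was 0.00606 without F46A replicate 3. H730A had 13.4% ± 2.57 there. Also low in Uhrf1 KO were chrX:81572527-81572669 with 10.3% of wild type and chr17:39992734-39992876 with 11.4%. In both H730A was higher than Uhrf1 KO (by 12.4 and 11.4 points), at 38.8% and 41.2% of wild type. Low in H730A and F46A alike were chrX:72573099-72573241 (20.1% and 12.8% of wild type) and chr8:7542407-7542549, inside the long noncoding gene Gm30954 (20.6% and 11.6%). Low in H730A was also chr4:67916618-67916743 (23.0%), and low in F46A were chr14:22835546-22835688, inside Lrmda (12.9%), and chrX:41180293-41180435 (13.1%).

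Copies inside genes had somewhat lower mean levels than the rest in every genotype. The 18 in gene spans had 35.6% in wild type and 5.90% ± 0.324, 11.5% ± 1.57 and 6.85% ± 1.00 in the 3 mutants, and the 73 outside 37.2%, 6.35% ± 0.171, 12.8% ± 1.30 and 7.55% ± 1.17 (SD, n = 4). Of the 14 in protein-coding genes, 11 were higher in H730A than in Uhrf1 KO (78.6%, against 75.8% of the whole set) and 5 lower in F46A than in H730A (35.7%, against 40.7%), shares near those of the set. The 3 with the most calls were in Kcnq3, a potassium channel subunit, Focad, which encodes focadhesin, and Zpbp, a sperm protein that binds the zona pellucida. The Kcnq3 copy had 34.7% in wild type, 4.58% ± 1.44 in the knockout, 13.8% ± 2.92 in H730A and 6.55% ± 1.71 in F46A. The Focad copy, chr4:88287369-88287511, had 12.4% ± 2.06 in H730A against 5.51% ± 0.727 in Uhrf1 KO, and the Zpbp copy, chr11:11288200-11288342, 8.94% ± 2.06 against 4.51% ± 0.771. All 3 passed the test for H730A against Uhrf1 KO, and all but the Zpbp copy that for F46A against H730A.

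The clustered copies did not all act like the chromosome 2 group. Of the 17, 12 were higher in H730A than in Uhrf1 KO (70.6%, against 75.8% of the whole set) and 7 were lower in F46A than in H730A (41.2%, against 40.7%). The 3 copies at chr9:80956136-80957126 had 11.8% to 13.1% in H730A against 8.10% to 9.0% in Uhrf1 KO, and none passed. Of the pair on chromosome 4, chr4:67916177-67916282 passed (9.84% against 5.17%) and chr4:67916618-67916743 did not (7.50% against 6.08%). The 2 copies in Gabra3, which start 5017 bp apart, had 7.55% and 7.87% in H730A. The copy chr3:8451629-8451770, whose sites were not placed on the pattern, had 50.2% in wild type and 6.77% in the knockout. It had 17.2% ± 0.527 in H730A and 8.15% in F46A, so the order of genotypes was that of the set.

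At the 4 CpGs named for the widest gap between H730A and Uhrf1 KO, H730A averaged 40.2% to 49.2%. The site chr1:150233242, at position 113, had 76.6% and 75.8% in wild type, 0% to 7.94% in Uhrf1 KO, 34.9% to 50.9% in H730A and 3.28% to 14.9% in F46A, on 40 to 66 calls. H730A was above Uhrf1 KO there by 36.7 points (adjusted p = 0.000331). The sites chr2:23939238 and chr2:23938293, at the same position in neighbouring copies, had 42.8% ± 5.51 and 41.8% ± 7.13 in H730A against 5.22% ± 2.19 and 6.88% ± 2.29 in Uhrf1 KO. At chr2:23940173, at position 103, H730A had 49.2% ± 3.39 and Uhrf1 KO 15.7% ± 8.42, the latter spread by replicate 2 at 28.3%. In F46A these 4 sites stood at 8.20%, 19.1%, 18.3% and 24.0%.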

How the data were processed

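LINE1 amplicons from bisulfite-treated DNA of 16 libraries were analysed. Per the submitters' processing notes, Trim Galore 0.3.1, BSMAP 2.90, methylKit and mm10 were used. Per the file headers, the authors deposited methylated and total call counts per cytosine and their ratio, a fraction. Sites with at least 10 calls in all libraries were kept. Members and lists were chosen with earlier results of these data known.

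Copies and sites were compared with a quasi-binomial model of the counts, its dispersion moderated with limma 3.58.1 (R 4.3.3) and kept at 1 or above, with Benjamini-Hochberg adjustment over all 753 copies or 10185 sites and a threshold of 0.05. The model was tested on simulated counts of single sites without spread between libraries, and the copy fits were not simulated. In the data the median dispersion was 1.65 to 3.07 for copies and 0.852 to 1.09 for sites. P-values of sites therefore rest mostly on the sampling of calls. Named were the copies with the highest wild-type level, the widest differences, the highest and lowest shares kept and the most calls in genes, the sites with the widest differences, and the copies next to the 33% limit; 1 of these copies is not reported here. Alternatives were another coverage minimum, limma on logit values, Fisher's exact test, 1 fit of 14 libraries, other limits and choosing libraries, and each library left out. Gene names are from RefSeq (GRCm38.p6, the mm10 assembly).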

Additional observations from a re-analysis of the deposited data

Results flagged for a closer look

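Among 102 groups of 4 libraries examined for the whole set and the named copies and sites, 3 held a library far from the other 3, where chance flags about 1 in 20. At chr2:23940078-23940220 Uhrf1 KO replicate 2 had 12.6% and the other 3 knockout libraries 7.72% to 8.51%. At chr2:23940173, a site of that copy, the same library had 28.3% and the others 10.6% to 12.2%. At chr11:11288200-11288342, in Zpbp, F46A replicate 3 had 3.45% and the others 7.42% to 8.21%. F46A replicate 3 was also the lowest F46A library over the whole set, at 5.83%.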

How the results depend on the processing

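All 91 copies were lower in each mutant than in wild type under every alternative run, of which the minimum of 30 calls kept 47 copies and 572 sites and so gave 47 of 47. With that minimum 43 of the 47 copies were called for H730A against Uhrf1 KO (91.5%, against 68.6% of all copies kept). Sites called numbered 568, 554 and 567 of 572 for Uhrf1 KO, H730A and F46A against wild type. Over all 7233 sites kept they numbered 6928, 6766 and 6906. For F46A against Uhrf1 KO 18 sites were called (3.15%, against 4.09% of all sites kept). For F46A against H730A 107 were (696 of all 7233). For F46A against Uhrf1 KO Fisher's exact test called 22 copies (24.2%, against 14.2% of all tested copies). It also called 46 sites there (4.16%, against 6.15% of all tested sites). For F46A against H730A it called 81 copies (89.0%, against 74.2%) and 221 sites (1407 of all 10185). The fit of 14 libraries called 5 sites for F46A against Uhrf1 KO (0.452%, against 1.42%). For F46A against H730A it called 105 sites (591 of all 10185), and limma on logit values called 2 (2 of all 10185). With 1 library left out, F46A against H730A gave 24 to 46 copies and 0 to 19 sites. The 46 came without F46A replicate 4, where 40.5% of all tested copies were called. F46A against Uhrf1 KO gave 0 to 5 copies (5.49%, against 3.19% of all tested copies). H730A against Uhrf1 KO gave from 62 (68.1%, against 51.1% of all tested copies) to 76 (83.5%, against 64.9%). Pooled levels over the set moved with its limit: at 30% and 36% wild type had 34.5% and 40.1% and H730A 11.1% and 14.01%, with 6.71% in Uhrf1 KO at 36%. Wild type also had 37.3% with the minimum of 30 calls, 36.99% as a mean of sites, 37.1% as a mean of copies, 36.2% with members chosen by replicates 3 and 4, and 36.8% on pattern sites alone. Uhrf1 KO had 6.48% as a mean of sites and 6.48% as a mean of copies, and kept 16.3% with the minimum of 30 calls, 17.5% as a mean of sites and 17.6% at a limit of 30%. For the moved levels and counts the cause was not tested, apart from the sites and copies removed by the minimum of 30 calls.

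Same-numbered libraries of different genotypes correlated weakly, at -0.0916 to 0.0771. For H730A with Uhrf1 KO 5 of 8 libraries correlated best with their own number, and 0 of 8 for either pair with F46A. A pairing by replicate number was thus not clear, and for H730A with Uhrf1 KO it is not excluded. A fit with the replicate number as a block called 15 copies for F46A against H730A in place of 37 (16.5%, against 4.38% of all tested copies). For H730A against Uhrf1 KO this fit called 71 (78.0%, against 61.8%). It called 0 sites in every comparison, in the set and among all tested sites. The main fit had called 1055, 978, 1047, 316 and 49 where it called any. Against wild type only 2 pairs of libraries share a replicate number, so the block fit is a smaller test there. Between mutants the block fit kept all 8 libraries. Whether the block, or against wild type the smaller size, removed those calls was not tested.

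The precision of single sites is limited by depth, at 39 to 50 calls per library for the median site of the set. Summing Uhrf1 KO replicates 1, 2 and 4 as 1 sample was an alternative chosen after seeing the data. For H730A against Uhrf1 KO it gave 64 copies (70.3%, against 50.7% of all tested copies). Sites called numbered 278 (25.1%, against 19.3% of all tested sites). Leaving out sites outside the pattern, also chosen then, moved the share kept by more than 1 SD between libraries in 3 of the 6 copies that hold such sites beside the pattern, that of chr9:98251241-98251385 in Uhrf1 KO from 17.3% to 19.1%.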
